A study of Capra hircus with 20 samples.

Results

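The genes described here are 41 genes of mitosis and the spindle, taken by symbol from a list of cyclins, mitotic kinases, spindle checkpoint and kinetochore proteins, mitotic kinesins, spindle-binding proteins, condensin subunits and cytokinesis proteins. All 41 were found among the 20587 gene symbols of the mRNA table. The rule used symbols and no threshold on a measured value, but the list was drawn up with earlier results of these data known. They were read in cultured goat (Capra hircus) cells of 4 groups with 5 libraries each, which were intramuscular preadipocytes (IMPA), intramuscular adipocytes (IMA), subcutaneous preadipocytes (SPA) and subcutaneous adipocytes (SA). The cells came from the longissimus dorsi muscle and the subcutaneous fat of male Jianzhou Daer goats aged 7 days and were used at passage 3. IMPA and SPA were collected on day 0, before induction, and IMA and SA after 3 days of induction with oleic acid. The model is therefore a short induction of passaged cells in a dish. The study names 5 goats and 5 biological replicates per group, but the labels do not tie a replicate number to a goat. The p values therefore measure the spread between libraries, which may be technical in part.

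Mitosis divides the copied chromosomes between daughter cells. CDK1 with its cyclins starts it, the kinetochores join chromosomes to spindle microtubules, and the spindle checkpoint holds back the anaphase-promoting complex until every chromosome is attached. Most of these genes are transcribed mainly in the later part of the cell cycle, so the summed message of a culture is widely read as a proliferation signature. Preadipocytes in culture divide until they reach confluence, and fat cells that have completed differentiation no longer do.

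Values are FPKM, fragments scaled to transcript length and to the mapped total of the library, with the transcripts of a gene summed, and the 5 values of a group are always given in the order of replicates 1 to 5. FPKM is scaled by length, so levels of different genes can be set side by side. The FPKM sum of a library, lncRNAs included, ranged from 527426 to 596669. Fragment counts were not used here, and the number of fragments behind a value was not worked out. The study's mapping summary lists more mapped reads for every IMPA library than for any library of the other groups. In that summary every preadipocyte library had a larger mapped share of reads than every adipocyte library of its depot, and the fall was larger in the intramuscular cells. At each stage every intramuscular library also had a larger mapped share than every subcutaneous library. Mapped share therefore cannot be told apart from stage, from depot or from a stage change that differs between depots. Of 9 adipocyte markers 8 had a row in the table used here, and the other, FABP4, was not analysed. These 8 summed to 11.2 to 12.2 FPKM in IMPA, 7.32 to 8.52 in IMA, 11.0 to 12.5 in SPA and 10.2 to 12.4 in SA, and 1 of 8 had a mean of at least 1 FPKM in IMA and 4 of 8 in SA. CEBPA led the list in IMA with 5.42 ± 0.628 FPKM (SD, n = 5), and its IMPA mean was 9.23 ± 0.428. In SA it was at 3.91 ± 0.603 FPKM, against 5.05 ± 0.368 in SPA. CIDEC was at 0.318 ± 0.194 FPKM in IMA and led in SA with 4.35 ± 0.187. LPL was at 0.941 ± 0.172 and 1.34 ± 0.271 FPKM and PPARG at 0.364 ± 0.108 and 1.03 ± 0.252. ADIPOQ and PLIN1, of mature fat cells, reached at most 0.596 and 0.438 FPKM in any library, and LEP was listed at 0 in every SA library. Of 13 skeletal muscle markers, 12 were in the table, and their sum was 3333 to 3823 FPKM in IMPA, 11860 to 12626 in IMA, 6.68 to 23.3 in SPA and 7.42 to 9.20 in SA, with MYOD1 at 0 in every SPA library and CKM at 0 in every SA library. The 5 endothelial markers summed to at most 1.19 FPKM in any library, and the 5 macrophage and leukocyte markers in the table to 4.42 to 8.38 FPKM in IMPA, 9.67 to 12.3 in IMA, 15.4 to 18.2 in SPA and 12.7 to 15.6 in SA. Most of that sum was CD14, while PTPRC, the pan-leukocyte gene, reached at most 0.0107 FPKM in any library.

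The mitosis and spindle genes were lowest in subcutaneous preadipocytes, highest in subcutaneous adipocytes and in between in both intramuscular groups. Summed over the 41 genes, the level was 164 to 192 FPKM in the SPA libraries (180 ± 11.8, SD, n = 5), 636 to 709 in SA (685.5 ± 29.1), 370 to 460 in IMPA (422 ± 35.4) and 365 to 414 in IMA (382 ± 19.8). The SPA and SA libraries did not overlap with each other or with either intramuscular group, whereas IMPA and IMA did. These genes made up 0.0430% to 0.0507% of the mRNA FPKM sum in SPA and 0.161% to 0.182% in SA. The share was 0.0972% to 0.118% in IMPA and 0.0918% to 0.104% in IMA. In bulk RNA, a larger share of dividing cells and more of these messages per dividing cell cannot be told apart.

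**Figure D1:**
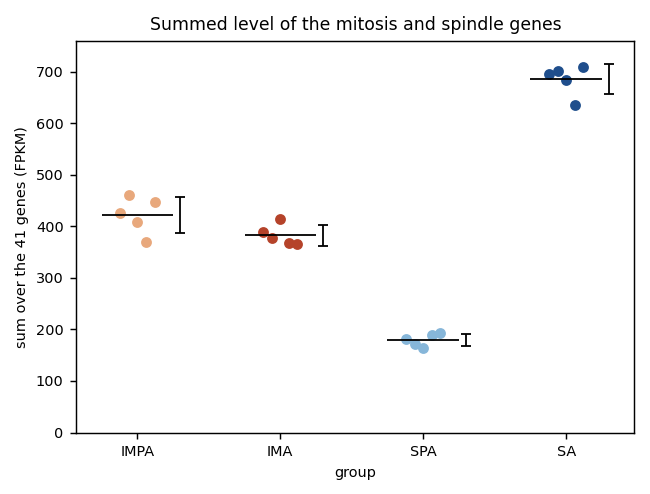
Sum of the FPKM of the 41 mitosis and spindle genes (y axis, FPKM, from 0) in each library of IMPA, IMA, SPA and SA (x axis). Points are libraries, lines are means and bars are SD over 5 libraries. The SPA libraries lie between 164 and 192, the SA libraries between 636 and 709, and the intramuscular libraries between 365 and 460.

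Gene by gene the order was nearly uniform. The SA mean was the highest of the 4 groups for 41 of 41 genes and the SPA mean the lowest for 40, the exception being SKA1, whose lowest mean was in IMA. For 32 genes the means ran SA, IMPA, IMA, SPA from high to low, for 8 genes IMA stood above IMPA, and for SKA1 IMA stood below SPA. The mean level in SA spanned from 2.38 ± 0.399 FPKM for PLK1 to 57.2 ± 3.03 for TOP2A (SD, n = 5).

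Each stage comparison was tested with limma on log2(FPKM + 1) among 11432 genes with a mean of at least 1 FPKM, a filter that all 41 members passed, and a gene was called at a Benjamini-Hochberg adjusted p under 0.05. From SPA to SA, 41 of 41 members rose, where 26.1% of all genes tested rose. From IMPA to IMA none rose, where 19.9% of all genes tested did, 22 fell, where 40.2% did, and 19 did not pass. Below, a fold is the ratio of group means in FPKM, and a log2 fold change, given with its standard error (SE), is on the log2(FPKM + 1) scale, which understates the change of low genes.

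**Figure D2:**
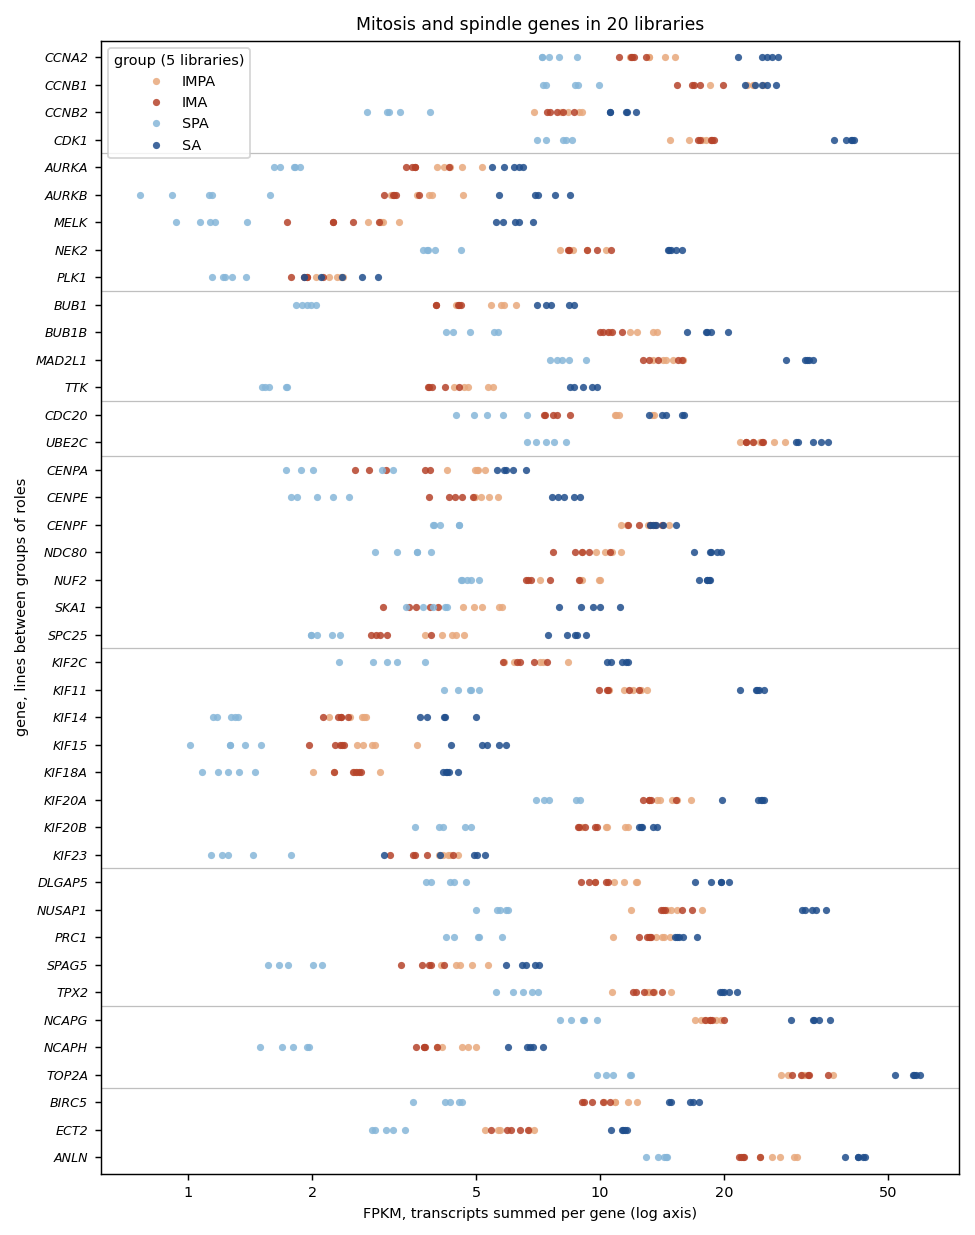
FPKM of each of the 41 genes (y axis, grouped by role) in every library (x axis, log scale), coloured by group with 5 points per group. The SA points lie to the right of the SPA points for every gene, and the IMPA and IMA points mostly share a range between them.

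Among the mitotic cyclins and CDK1, all 4 genes rose in the subcutaneous cells and 2 of 4 fell in the intramuscular cells. CDK1 (gene ID 100861361), the kinase that drives entry into mitosis, was at 16.5, 18.6, 17.7, 14.8 and 18.0 FPKM in IMPA, at 18.9, 18.6, 18.7, 17.3 and 17.5 in IMA, at 8.56, 7.03, 7.38, 8.27 and 8.10 in SPA and at 40.6, 41.01, 39.6, 37.1 and 41.4 in SA. Its SA values lay far above the other 3 groups, its SPA values below them, and IMPA and IMA overlapped. CDK1 rose 5.07-fold from SPA to SA (log2 fold change 2.21 ± 0.053, adjusted p = 3.6e-11), and from IMPA to IMA it changed by 0.087 ± 0.058 (adjusted p = 0.21), the most positive value of any member there. CCNB1 (gene ID 102188170), a B-type cyclin that activates CDK1, was at 23.5, 22.7, 23.6, 18.5 and 24.9 FPKM in IMPA, at 17.5, 16.9, 19.9, 16.7 and 15.4 in IMA, at 8.69, 7.28, 7.40, 9.94 and 8.84 in SPA and at 25.4, 24.8, 26.7, 22.5 and 23.8 in SA. Here IMPA reached into the SA range, and IMPA 4 was the sole IMPA library within the range of IMA. CCNB1 rose 2.92-fold from SPA to SA (1.45 ± 0.076, adjusted p = 1.3e-08) and fell in IMA to 0.763 of the IMPA mean (-0.37 ± 0.080, adjusted p = 0.0018). Its relative CCNB2 ranged over 6.93 to 9.03 FPKM in IMPA, 7.42 to 8.64 FPKM in IMA, 2.71 to 3.86 FPKM in SPA and 10.5 to 12.2 FPKM in SA, rose in SA (1.56 ± 0.071, adjusted p = 3.7e-09) and did not pass in IMA (-0.048 ± 0.067, adjusted p = 0.55). CCNA2, a cyclin that acts from DNA replication up to early mitosis, ranged over 11.8 to 15.2 FPKM in IMPA, 11.1 to 12.9 FPKM in IMA, 7.24 to 8.79 FPKM in SPA and 21.7 to 27.1 FPKM in SA and rose in SA (1.57 ± 0.065, adjusted p = 1.7e-09). Its decrease in IMA passed narrowly (-0.16 ± 0.063, adjusted p = 0.048).

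All 5 mitotic kinases rose in the subcutaneous cells, with the smallest and the largest fold of all members among them, and 3 of 5 fell in the intramuscular cells. PLK1 (gene ID 102171678), which matures centrosomes and acts through all of mitosis, was at 2.38, 2.35, 2.04, 2.19 and 2.30 FPKM in IMPA, at 1.78, 1.94, 2.12, 1.91 and 1.94 in IMA, at 1.23, 1.14, 1.21, 1.28 and 1.38 in SPA and at 2.63, 2.09, 1.90, 2.36 and 2.89 in SA. It was the lowest member in SA, and its SA range enclosed the whole of the IMPA range and reached into that of IMA. PLK1 rose 1.90-fold in SA (0.58 ± 0.075, adjusted p = 4e-05) and fell in IMA (-0.15 ± 0.050, adjusted p = 0.024). AURKB (gene ID 102174243), the kinase of the chromosomal passenger complex, was at 3.84, 4.64, 3.59, 3.11 and 3.90 FPKM in IMPA, at 2.99, 3.16, 3.13, 3.64 and 3.20 in IMA, at 1.58, 1.12, 0.761, 0.911 and 1.14 in SPA and at 7.79, 6.94, 5.68, 7.08 and 8.43 in SA. Every SA library was above every intramuscular library and every intramuscular library above every SPA library. AURKB rose 6.51-fold in SA (1.96 ± 0.11, adjusted p = 2.1e-08), the largest ratio of means of the 41, and in IMA it did not pass (-0.18 ± 0.077, adjusted p = 0.058). AURKA, which builds the spindle poles, ranged over 4.02 to 5.16 FPKM in IMPA, 3.37 to 4.30 FPKM in IMA, 1.61 to 1.86 FPKM in SPA and 5.48 to 6.50 FPKM in SA, rose in SA (1.36 ± 0.052, adjusted p = 9.2e-10) and fell in IMA (-0.23 ± 0.069, adjusted p = 0.012). NEK2, a kinase of centrosome separation, ranged over 7.97 to 10.3 FPKM in IMPA, 8.37 to 10.6 FPKM in IMA, 3.71 to 4.60 FPKM in SPA and 14.7 to 15.8 FPKM in SA, rose in SA (1.69 ± 0.053, adjusted p = 1.7e-10) and did not pass in IMA (0.054 ± 0.076, adjusted p = 0.56). MELK, a kinase whose message follows the cell cycle, ranged over 2.73 to 3.24 FPKM in IMPA, 1.74 to 2.90 FPKM in IMA, 0.934 to 1.39 FPKM in SPA and 5.57 to 6.88 FPKM in SA. It rose 5.43-fold in SA (1.75 ± 0.066, adjusted p = 7.8e-10) and fell in IMA (-0.26 ± 0.082, adjusted p = 0.016).

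The 4 spindle checkpoint genes rose together in SA, by ratios of 3.72 to 5.64, and 3 of the 4 fell in IMA. TTK (gene ID 102170423), the kinase that starts checkpoint signalling at the kinetochore, was at 4.79, 5.50, 4.41, 4.67 and 5.34 FPKM in IMPA, at 3.84, 3.82, 4.54, 4.199 and 3.91 in IMA, at 1.57, 1.74, 1.51, 1.72 and 1.53 in SPA and at 8.62, 9.84, 9.08, 8.47 and 9.55 in SA. Its 4 groups were apart except that IMPA 3 and IMA 3 crossed. TTK rose 5.64-fold in SA (1.95 ± 0.053, adjusted p = 7.2e-11) and fell in IMA (-0.23 ± 0.063, adjusted p = 0.0079). BUB1 (gene ID 102172729), a checkpoint kinase of the kinetochore, was at 5.76, 6.24, 5.44, 4.46 and 5.83 FPKM in IMPA, at 4.58, 4.55, 4.52, 3.98 and 3.99 in IMA, at 2.04, 1.82, 1.98, 1.89 and 1.94 in SPA and at 8.39, 7.04, 7.60, 7.40 and 8.64 in SA. IMPA 4 lay within the IMA range and the other IMPA libraries above it. BUB1 rose 4.04-fold in SA (1.58 ± 0.057, adjusted p = 4.9e-10) and fell in IMA (-0.29 ± 0.074, adjusted p = 0.0048). BUB1B, a checkpoint protein that binds and inhibits CDC20, ranged over 10.6 to 13.7 FPKM in IMPA, 9.97 to 11.3 FPKM in IMA, 4.21 to 5.64 FPKM in SPA and 16.2 to 20.5 FPKM in SA, rose in SA (1.71 ± 0.079, adjusted p = 3.8e-09) and fell in IMA (-0.21 ± 0.065, adjusted p = 0.014). MAD2L1, which holds CDC20 inactive at the checkpoint, ranged over 13.4 to 15.9 FPKM in IMPA, 12.7 to 15.8 FPKM in IMA, 7.57 to 9.25 FPKM in SPA and 28.3 to 33.0 FPKM in SA, rose in SA (1.81 ± 0.055, adjusted p = 1.6e-10) and did not pass in IMA (-0.042 ± 0.065, adjusted p = 0.6).

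Both partners of the anaphase-promoting complex rose in SA, but in the intramuscular cells 1 passed and 1 did not, and the difference between them was not tested. CDC20 (gene ID 102171483), the activator that lets the complex start anaphase, was at 13.4, 10.9, 11.1, 10.8 and 13.5 FPKM in IMPA, at 8.43, 7.32, 7.36, 7.67 and 7.85 in IMA, at 4.93, 5.32, 4.47, 5.81 and 6.66 in SPA and at 14.5, 15.99, 13.2, 14.1 and 15.8 in SA. No IMA library reached the lowest IMPA library, and no SPA library reached the lowest IMA library. CDC20 rose 2.71-fold in SA (1.29 ± 0.086, adjusted p = 1.1e-07) and had the most negative change of all members in IMA, to 0.647 of the IMPA mean (-0.56 ± 0.070, adjusted p = 3.2e-05). UBE2C (gene ID 102180057), the ubiquitin-conjugating enzyme that works with the complex, was at 23.6, 28.1, 24.5, 21.9 and 26.4 FPKM in IMPA, at 24.9, 22.6, 24.7, 23.5 and 22.7 in IMA, at 7.001, 6.64, 7.72, 7.38 and 8.28 in SPA and at 32.9, 34.3, 30.3, 30.0 and 35.8 in SA. Its IMA range lay inside its IMPA range. UBE2C rose 4.41-fold in SA (2.00 ± 0.063, adjusted p = 1.8e-10) and did not pass in IMA (-0.065 ± 0.061, adjusted p = 0.38).

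All 7 centromere and kinetochore genes rose in SA and 5 of 7 fell in IMA. CENPA (gene ID 102181134), the histone variant that marks the centromere, was at 5.06, 5.26, 5.02, 4.24 and 4.96 FPKM in IMPA, at 3.02, 3.75, 3.86, 2.53 and 2.74 in IMA, at 2.00, 1.72, 1.88, 3.15 and 2.96 in SPA and at 6.60, 5.61, 5.85, 6.14 and 5.90 in SA. IMPA and IMA did not overlap, and SPA 4 and SPA 5 reached into the IMA range. CENPA rose 2.57-fold in SA (1.09 ± 0.11, adjusted p = 6e-06) and fell in IMA to 0.648 of the IMPA mean (-0.51 ± 0.091, adjusted p = 0.00051). SKA1 (gene ID 102171945), part of a complex that keeps kinetochores on shortening microtubules, was at 5.16, 5.78, 4.63, 4.95 and 5.68 FPKM in IMPA, at 2.97, 3.86, 4.05, 3.58 and 3.44 in IMA, at 4.19, 3.93, 3.72, 4.24 and 3.37 in SPA and at 10.0, 11.2, 9.63, 7.93 and 8.98 in SA. It was the sole member whose IMA and SPA ranges crossed with the IMA mean below. SKA1 rose 2.45-fold in SA (1.10 ± 0.081, adjusted p = 2.8e-07) and fell in IMA to 0.683 of the IMPA mean (-0.45 ± 0.074, adjusted p = 0.00027). NDC80 (gene ID 102173517), which binds microtubules at the kinetochore, was at 10.3, 11.3, 9.77, 9.06 and 10.7 FPKM in IMPA, at 9.39, 8.67, 10.6, 7.67 and 9.04 in IMA, at 3.599, 3.22, 2.84, 3.59 and 3.87 in SPA and at 18.6, 18.5, 19.2, 16.9 and 19.7 in SA. IMPA and IMA overlapped widely, between SPA below and SA above. NDC80 rose 5.42-fold in SA (2.15 ± 0.067, adjusted p = 1.7e-10) and did not pass in IMA (-0.16 ± 0.076, adjusted p = 0.094). Its complex partners NUF2 and SPC25 rose in SA by 3.79-fold (1.73 ± 0.039, adjusted p = 2.8e-11) and 4.01-fold (1.60 ± 0.060, adjusted p = 6.4e-10). Both fell in IMA, NUF2 by a log2 fold change of -0.27 ± 0.094, adjusted p = 0.026 and SPC25 by one of -0.37 ± 0.076, adjusted p = 0.0013. NUF2 ranged over 7.16 to 10.0 FPKM in IMPA, 6.59 to 8.91 FPKM in IMA, 4.60 to 5.07 FPKM in SPA and 17.4 to 18.5 FPKM in SA. SPC25 ranged over 3.75 to 4.67 FPKM in IMPA, 2.78 to 3.89 FPKM in IMA, 1.98 to 2.33 FPKM in SPA and 7.46 to 9.22 FPKM in SA.

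CENPF (gene ID 102179690), a large kinetochore-associated protein, was at 13.1, 14.7, 11.6, 11.2 and 13.5 FPKM in IMPA, at 13.2, 13.6, 14.1, 12.4 and 11.7 in IMA, at 4.09, 3.95, 3.92, 4.55 and 4.54 in SPA and at 14.2, 13.7, 13.2, 13.4 and 15.3 in SA. Its SA level was close to that of both intramuscular groups, while SPA stood apart below. CENPF rose 3.31-fold in SA (1.52 ± 0.055, adjusted p = 4.9e-10) and in IMA did not pass (0.024 ± 0.072, adjusted p = 0.79). CENPE, the kinesin-like motor of the kinetochore, ranged over 4.95 to 5.64 FPKM in IMPA, 3.84 to 4.91 FPKM in IMA, 1.78 to 2.45 FPKM in SPA and 7.63 to 8.95 FPKM in SA. It rose in SA (1.60 ± 0.069, adjusted p = 2.3e-09) and fell in IMA with no overlap between IMPA and IMA (-0.20 ± 0.059, adjusted p = 0.012).

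All 8 mitotic kinesins, motors that move or shorten spindle microtubules, rose in SA and 3 of 8 fell in IMA. KIF11 (gene ID 102174270), which pushes the spindle poles apart, was at 12.02, 13.0, 11.4, 10.5 and 12.6 FPKM in IMPA, at 11.7, 10.5, 12.4, 10.4 and 9.93 in IMA, at 4.84, 4.52, 4.17, 4.85 and 5.07 in SPA and at 23.9, 24.3, 24.0, 21.9 and 24.97 in SA. The lowest SA library was above the highest intramuscular library and the highest SPA library below the lowest intramuscular one. KIF11 rose 5.08-fold in SA (2.13 ± 0.052, adjusted p = 3.6e-11) and did not pass in IMA (-0.11 ± 0.069, adjusted p = 0.2). KIF15 (gene ID 102179990), which helps to keep the spindle bipolar, was at 2.57, 3.59, 2.65, 2.79 and 2.85 FPKM in IMPA, at 2.34, 2.35, 2.39, 2.27 and 1.96 in IMA, at 1.37, 1.26, 1.01, 1.501 and 1.26 in SPA and at 5.32, 5.68, 4.35, 5.16 and 5.89 in SA. Its 4 groups did not overlap. KIF15 rose 4.12-fold in SA (1.46 ± 0.077, adjusted p = 1.3e-08) and fell in IMA (-0.25 ± 0.071, adjusted p = 0.0096). KIF23 (gene ID 102174210), a motor of the central spindle needed for cytokinesis, was at 4.32, 4.53, 4.06, 4.28 and 4.16 FPKM in IMPA, at 3.55, 3.81, 4.40, 3.09 and 3.50 in IMA, at 1.14, 1.25, 1.21, 1.78 and 1.44 in SPA and at 5.03, 4.93, 2.98, 4.09 and 5.24 in SA. SA 3 was below every intramuscular library, and the other SA libraries lay among or above them. KIF23 rose 3.27-fold in SA (1.20 ± 0.12, adjusted p = 4.4e-06) and fell in IMA (-0.18 ± 0.068, adjusted p = 0.037).

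KIF2C, which takes microtubules apart at the centromere, ranged over 5.83 to 8.36 FPKM in IMPA, 5.82 to 7.44 FPKM in IMA, 2.33 to 3.75 FPKM in SPA and 10.4 to 11.7 FPKM in SA, and KIF18A, which aligns chromosomes, over 2.01 to 2.93 FPKM in IMPA, 2.26 to 2.63 FPKM in IMA, 1.08 to 1.45 FPKM in SPA and 4.16 to 4.51 FPKM in SA. Both rose in SA, KIF2C by 1.60 ± 0.083, adjusted p = 1.1e-08 and KIF18A by 1.23 ± 0.051, adjusted p = 1.6e-09, and neither passed in IMA, KIF2C at -0.066 ± 0.086, adjusted p = 0.53 and KIF18A at 0.026 ± 0.069, adjusted p = 0.77. KIF14, a kinesin of cytokinesis and among the low members, ranged over 2.19 to 2.70 FPKM in IMPA, 2.13 to 2.44 FPKM in IMA, 1.15 to 1.32 FPKM in SPA and 3.64 to 4.99 FPKM in SA. It rose in SA (1.20 ± 0.066, adjusted p = 1.9e-08) and did not pass in IMA (-0.091 ± 0.054, adjusted p = 0.16). The related KIF20A and KIF20B, which act in the central spindle and in cytokinesis, stood on either side of the threshold in IMA. KIF20A ranged over 13.8 to 16.7 FPKM in IMPA, 12.7 to 15.3 FPKM in IMA, 6.99 to 8.93 FPKM in SPA and 19.8 to 25.1 FPKM in SA, rose in SA (1.47 ± 0.078, adjusted p = 1.4e-08) and did not pass in IMA (-0.14 ± 0.061, adjusted p = 0.07). KIF20B ranged over 9.05 to 11.7 FPKM in IMPA, 8.83 to 9.82 FPKM in IMA, 3.56 to 4.84 FPKM in SPA and 12.5 to 13.8 FPKM in SA, rose in SA (1.41 ± 0.067, adjusted p = 5e-09) and fell in IMA (-0.17 ± 0.063, adjusted p = 0.039), and the difference between the relatives was not tested.

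The 5 proteins that bind and bundle spindle microtubules rose in SA and 2 of 5 fell in IMA. NUSAP1 (gene ID 102181960), which bundles microtubules around chromosomes, was at 14.9, 17.6, 14.5, 11.9 and 15.4 FPKM in IMPA, at 16.7, 14.4, 15.8, 14.2 and 14.0 in IMA, at 5.71, 5.63, 4.99, 5.91 and 5.97 in SPA and at 33.4, 31.4, 32.7, 30.9 and 35.4 in SA. Its SA values were far above all others, and IMA lay within the IMPA range. NUSAP1 rose 5.81-fold in SA (2.35 ± 0.052, adjusted p = 2.8e-11), the largest log2 fold change of the 41 and rank 2 by p among the 11432 genes tested, and in IMA it did not pass (0.024 ± 0.086, adjusted p = 0.82). TPX2 (gene ID 102181315), which activates AURKA and seeds spindle microtubules, was at 13.1, 14.8, 13.0, 10.7 and 13.5 FPKM in IMPA, at 12.2, 13.4, 14.1, 12.02 and 12.8 in IMA, at 6.49, 5.59, 6.16, 7.07 and 6.83 in SPA and at 20.01, 19.8, 20.5, 21.5 and 19.6 in SA. IMA again lay within IMPA, and TPX2 rose in SA (1.52 ± 0.056, adjusted p = 5.8e-10) with the smallest change of any member in IMA (-0.0071 ± 0.075, adjusted p = 0.94). PRC1, which crosslinks the microtubules of the central spindle, ranged over 10.8 to 14.8 FPKM in IMPA, 12.4 to 13.3 FPKM in IMA, 4.22 to 5.77 FPKM in SPA and 15.2 to 17.2 FPKM in SA. It rose in SA (1.52 ± 0.068, adjusted p = 3.2e-09) and did not pass in IMA (-0.044 ± 0.071, adjusted p = 0.62). DLGAP5, which steadies kinetochore fibres, ranged over 9.71 to 12.3 FPKM in IMPA, 8.99 to 10.5 FPKM in IMA, 3.79 to 4.73 FPKM in SPA and 17.0 to 20.6 FPKM in SA, rose in SA (1.94 ± 0.063, adjusted p = 2.1e-10) and fell in IMA (-0.19 ± 0.065, adjusted p = 0.027). SPAG5, a spindle and kinetochore protein, ranged over 4.11 to 5.34 FPKM in IMPA, 3.28 to 4.18 FPKM in IMA, 1.56 to 2.12 FPKM in SPA and 5.90 to 7.10 FPKM in SA, rose in SA (1.43 ± 0.066, adjusted p = 4e-09) and fell in IMA (-0.25 ± 0.068, adjusted p = 0.0078).

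Of the 3 genes of chromosome condensation, all rose in SA and 1 fell in IMA. TOP2A (gene ID 102188973), the topoisomerase that untangles sister DNA and the most abundant member in every group but SPA, where ANLN was higher, was at 30.9, 36.8, 28.7, 27.5 and 31.2 FPKM in IMPA, at 32.1, 32.1, 35.8, 30.7 and 29.2 in IMA, at 10.3, 10.7, 9.82, 11.8 and 11.9 in SPA and at 58.4, 60.0, 58.0, 52.0 and 57.6 in SA. IMPA and IMA covered nearly the same range, with SPA well below and SA well above. TOP2A rose 5.23-fold in SA (2.29 ± 0.056, adjusted p = 3.6e-11) and did not pass in IMA (0.047 ± 0.074, adjusted p = 0.6). The condensin subunit NCAPG ranged over 17.0 to 19.7 FPKM in IMPA, 18.0 to 20.05 FPKM in IMA, 7.98 to 9.84 FPKM in SPA and 29.1 to 36.1 FPKM in SA, rose in SA (1.78 ± 0.062, adjusted p = 3.9e-10) and did not pass in IMA (0.035 ± 0.047, adjusted p = 0.55). Its partner NCAPH (gene ID 102177246) was at 4.13, 4.99, 4.77, 4.01 and 4.62 FPKM in IMPA, at 3.73, 4.01, 3.76, 3.57 and 3.74 in IMA, at 1.94, 1.79, 1.49, 1.96 and 1.69 in SPA and at 6.88, 6.75, 5.98, 6.63 and 7.27 in SA. NCAPH rose in SA (1.47 ± 0.062, adjusted p = 2e-09) and fell in IMA (-0.21 ± 0.057, adjusted p = 0.0085), where the lowest IMPA library was barely above the highest IMA library.

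The last 3 members act in the passenger complex and in cytokinesis, and all 3 rose in SA and 2 fell in IMA. BIRC5 (gene ID 102180077), also known as survivin, which brings the passenger complex to the centromere, was at 10.9, 11.7, 10.9, 10.2 and 12.3 FPKM in IMPA, at 10.1, 9.56, 10.6, 9.12 and 9.05 in IMA, at 4.62, 4.201, 3.52, 4.32 and 4.54 in SPA and at 16.5, 16.8, 14.9, 14.7 and 17.4 in SA. IMPA and IMA overlapped while SPA and SA stood apart on either side. BIRC5 rose 3.79-fold in SA (1.70 ± 0.069, adjusted p = 1.3e-09) and fell in IMA (-0.19 ± 0.058, adjusted p = 0.013). ANLN (gene ID 102178507), the scaffold of the contractile ring, was at 30.1, 27.3, 26.1, 24.4 and 29.6 FPKM in IMPA, at 21.8, 22.4, 24.5, 22.0 and 22.2 in IMA, at 14.5, 13.8, 12.9, 14.3 and 14.5 in SPA and at 43.6, 43.9, 42.3, 39.3 and 42.3 in SA. IMPA 4 and IMA 3 were nearly equal and the other libraries of the groups did not cross. ANLN rose 3.02-fold in SA (1.53 ± 0.042, adjusted p = 7.2e-11) and fell in IMA (-0.27 ± 0.058, adjusted p = 0.0016). ECT2, which activates RhoA at the division plane, ranged over 5.26 to 6.92 FPKM in IMPA, 5.45 to 6.68 FPKM in IMA, 2.79 to 3.36 FPKM in SPA and 10.6 to 11.6 FPKM in SA, rose in SA (1.61 ± 0.050, adjusted p = 1.7e-10) and did not pass in IMA (0.014 ± 0.073, adjusted p = 0.88).

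The subcutaneous comparison set cells from fat after 3 days of induction against those of day 0. No uninduced culture of day 3 is among the groups, so induction and 3 more days in culture cannot be told apart. The median log2 fold change of the 41 members from SPA to SA was 1.58, against -0.0091 over all genes tested, and it ran from 0.58 for PLK1 to 2.35 for NUSAP1. The ratio of means had a median of 3.72 and lay between 1.90 and 6.51. For 41 of 41 members the SPA and SA libraries did not overlap, where 19.8% of all genes tested were higher in SA without overlap. Leaving out any single library, or SPA 1 and SA 5 together, which lost fewer reads in filtering than the other subcutaneous libraries, left the count at 41. Over all genes 2982 rose and 2975, or 26.0%, fell. With every library scaled to the same mRNA FPKM sum, 2327 rose and 4052 fell, and the members called were still 41. Of 8 stromal genes tested, 5 fell and 2 rose in the same comparison, and the list summed to 12685 to 13430 FPKM in SPA and 12136 to 12946 in SA. PDGFRA fell from 572 ± 14.7 to 327 ± 13.5 FPKM and THY1 from 37.4 ± 2.18 to 15.6 ± 1.09. The 2 stromal genes that rose were COL3A1, from 4303 ± 116 to 4975 ± 138 FPKM, and COL1A2, from 1810 ± 196 to 2186 ± 300. The macrophage marker CD68 fell from 2.27 ± 0.372 to 1.23 ± 0.159 FPKM. CD14 went from 14.5 ± 1.03 to 13.0 ± 1.16 FPKM and did not pass (limma, adjusted p = 0.075). The part of cell composition in the rise of the mitotic genes was not tested.

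**Figure D3:**
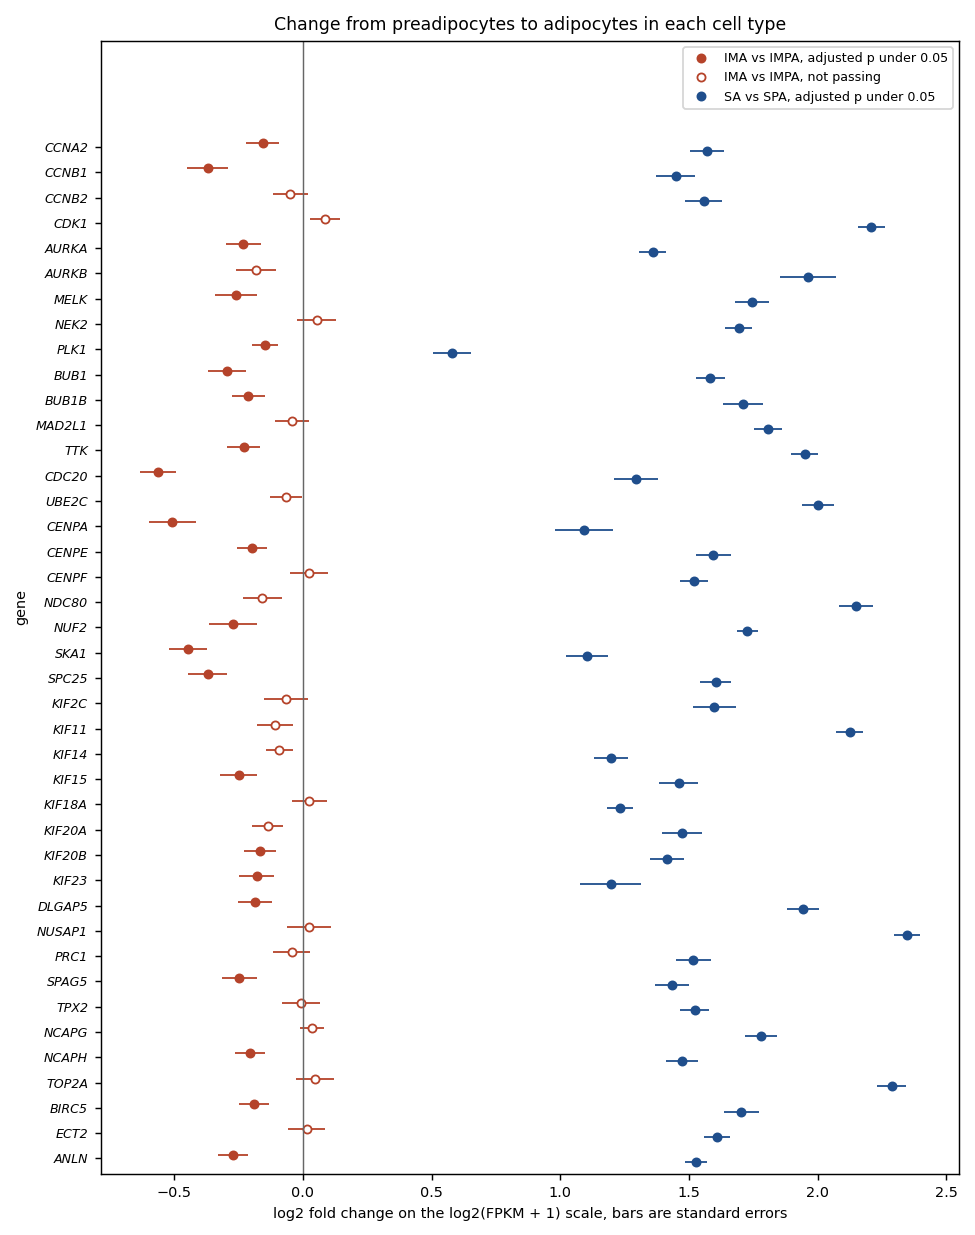
Log2 fold change on the log2(FPKM + 1) scale (x axis) of each gene (y axis) from IMPA to IMA (red) and from SPA to SA (blue), with bars for the standard error. Filled points passed at an adjusted p under 0.05. The blue points lie between 0.58 and 2.35 and the red points between -0.56 and 0.087.

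The intramuscular comparison did the same for cells from muscle, with the same limit on induction and time in culture. The median log2 fold change of the 41 members from IMPA to IMA was -0.17, against -0.085 over all genes tested, and the ratio of means lay between 0.647 and 1.06. An unadjusted p under 0.05 was reached by 24 members, and all of these were lower in IMA. IMPA and IMA did not overlap for 6 members, CDC20, CENPA, CENPE, KIF15, NCAPH and SKA1, which is 6 of 41 where 29.2% of all genes tested were lower in IMA without overlap. These 6 are a smaller share of the members than that background. The 22 that fell are 53.7% of the members, against 40.2% of all genes, but this order depended on the setting. Under quantile normalization 13 members fell, 31.7% against 33.1% of all genes, and with the library-size covariate 36.6% against 37.4%. With the most abundant transcript 13 members fell, 31.7% against 30.6%. In the same comparison 10 of 12 skeletal muscle markers rose and 1 fell, and both macrophage and leukocyte markers tested, CD14 and CD68, rose, with the sums given above, and their part in the decreases was not tested.

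Of the 22 decreases, 8 passed under each of the 21 alternatives tried for this comparison, namely AURKA, CCNB1, CDC20, CENPA, NCAPH, SKA1, SPC25 and ANLN. A further 8 passed with any 1 library left out but not under every other setting. BUB1B, CENPE and BIRC5 did not pass under quantile normalization, BUB1B and MELK with the library-size covariate, and KIF15, SPAG5, TTK and BUB1, whose sign turned, with the most abundant transcript. The other 6 were lost when certain single libraries were left out. CCNA2 did not pass without IMPA 1, 2, 3 or 5 or without IMA 1, 2, 3 or 4 (adjusted p up to 0.11), DLGAP5 without IMPA 1, 2 or 5 or IMA 4 or 5 (up to 0.068), and KIF20B without IMPA 1, 2, 3 or 5 or IMA 2, 4 or 5 (up to 0.092). KIF23 did not pass without IMPA 1, 2 or 4 or IMA 1, 4 or 5 (up to 0.09), NUF2 without IMPA 1 or 5 or IMA 1, 2 or 4 (up to 0.063), and PLK1 without IMPA 1 or 2 or IMA 1 (up to 0.059). In the other direction, AURKB, NDC80 and PRC1 passed as lower without IMPA 4 (adjusted p of 0.012, 0.049 and 0.027), AURKB also without IMA 4 (0.038), KIF20A and NDC80 without IMA 3 (0.015 and 0.023), and KIF20A and KIF14 without IMPA 3 (0.046 and 0.048).

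Whether the stage change differed between the depots was tested with the interaction of stage and cell type over all 20 libraries. All 41 members had a more negative change in the intramuscular than in the subcutaneous cells at an adjusted p under 0.05, where 34.6% of all genes tested did. The difference, IMA minus IMPA less SA minus SPA, had a median of -1.74 on the log2 scale, against -0.075 over all genes, and ran from -2.32 ± 0.10, adjusted p = 7.9e-14 for NUSAP1 to -0.73 ± 0.092, adjusted p = 9.9e-07 for PLK1. By role, the median difference was -1.96 for the partners of the anaphase-promoting complex, -1.90 for the spindle checkpoint, -1.80 for the passenger complex and cytokinesis, -1.79 for the centromere and kinetochore, -1.77 for the cyclins and CDK1, -1.74 for condensation, -1.68 for spindle microtubule binding, -1.64 for the kinases and -1.60 for the kinesins. Over all genes the difference was more positive in the intramuscular cells for 2368 and more negative for 3951, which became 3027 and 3221 under quantile normalization, where all 41 members still passed.

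**Figure D4:**
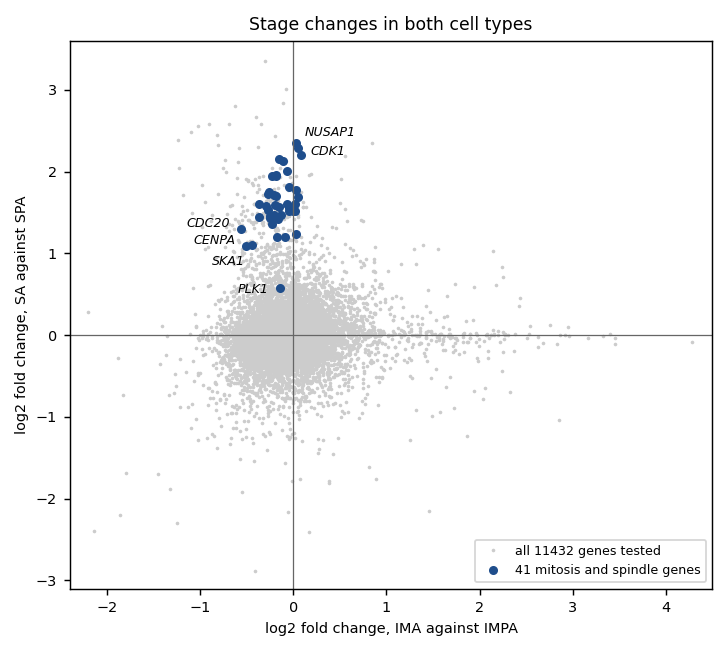
Log2 fold change from IMPA to IMA (x axis) against that from SPA to SA (y axis) for the 11432 genes tested (grey) and the 41 mitosis and spindle genes (blue), both on the log2(FPKM + 1) scale. The 41 genes form a band between 0.58 and 2.35 on the y axis and between -0.56 and 0.087 on the x axis, with PLK1 lowest.

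Before induction the mitotic genes were higher in the cells from muscle. From SPA to IMPA, 41 of 41 members were higher in IMPA, where 42.3% of all genes tested were, and for 41 the groups did not overlap, where this held for 35.9%. The median log2 difference was 1.01, against 0.055 over all genes. On the log2(FPKM + 1) scale, which understates low genes, UBE2C differed most (3.36-fold, 1.62 ± 0.070, adjusted p = 3.4e-10), followed by TOP2A (2.84-fold, 1.42 ± 0.076, adjusted p = 2.9e-09) and CENPF (3.04-fold, 1.40 ± 0.070, adjusted p = 1.4e-09). SKA1 differed least on that scale (1.35-fold, 0.35 ± 0.066, adjusted p = 0.00038), then PLK1 (1.80-fold, 0.53 ± 0.049, adjusted p = 6.7e-07) and KIF18A (1.96-fold, 0.61 ± 0.073, adjusted p = 7.2e-06). By the ratio of means the order was another, with AURKB (3.46-fold), UBE2C and KIF23 (3.14-fold) at the top and SKA1, CCNA2 (1.75-fold) and MAD2L1 (1.77-fold) at the bottom. The skeletal muscle markers separate these groups far more, at 3333 to 3823 FPKM in IMPA against 6.68 to 23.3 in SPA, and their part in the difference was not tested.

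After induction the order was turned round. In IMA, 39 of 41 members were lower than in SA, where 43.4% of all genes tested were, and 38 did not overlap, where 34.7% of genes were lower without overlap. No member was higher, where 29.0% of all genes tested were. The median log2 difference was -0.77, against -0.091 over all genes. The outer kinetochore genes SPC25 (-1.22 ± 0.076, adjusted p = 3.2e-09), NUF2 (-1.21 ± 0.068, adjusted p = 9.7e-10) and SKA1 (-1.20 ± 0.085, adjusted p = 1.2e-08) differed most on the log2 scale, and the IMA mean was 3.09 ± 0.456 FPKM for SPC25 against 8.49 ± 0.666 in SA. CENPF (-0.094 ± 0.057, adjusted p = 0.15) and KIF23 (-0.21 ± 0.11, adjusted p = 0.11) did not pass. KIF23 passed without SA 3, its lowest SA library (-0.32, adjusted p = 0.0043). PLK1 passed narrowly (-0.19 ± 0.079, adjusted p = 0.039) and no longer did without IMA 1, 2, 4 or 5 or without SA 1, 4 or 5, with adjusted p up to 0.11. The cell type comparisons use the same libraries as the stage comparisons and are not separate evidence.

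Within a group, some libraries stood high or low for many members at once. IMPA 2 held the highest IMPA value for 28 of 41 members and IMPA 4 the lowest for 32. IMA 3 was highest in IMA for 27, SPA 3 lowest in SPA for 23 and SA 4 lowest in SA for 24. No library was highest or lowest for all members. The spread of the 41-gene sum between replicates, at most 35.4 FPKM (SD, in IMPA), was small beside the distance between the SPA and SA means, 180 and 685.5 FPKM, and similar in size to that between the IMPA and IMA means, 422 and 382 FPKM.

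At the level of transcripts the 41 genes comprised 106 models, 17 genes with 1 transcript and 24 with several. Of the 24, 16 kept the same leading transcript, by mean share of the gene's FPKM, in all 4 groups. In CDK1, CENPA, ECT2, KIF23, PRC1, SPC25, TPX2 and TTK the leading transcript changed between groups, but shares also varied widely among replicates. For ECT2, the transcript that led in IMPA, IMA and SA held 61.3% in IMPA on average (44.6% to 71.7%) and 41.1% in IMA (0% to 62.5%). In SPA it held 33.5%, and another transcript led there with 43.2%. For SPC25, the transcript that led in IMPA, IMA and SA held 66.0%, 58.8% and 67.5% there and 29.3% in SPA, where it ranged from 13.7% to 53.1%. For TPX2, the leading transcript of IMPA held between 0.827% and 66.0% of the gene's FPKM in single IMPA libraries. These shares are assignments of shared reads and were not tested. With the most abundant transcript in place of the sum, 37 of the 41 members rose from SPA to SA, and CENPE, KIF20B, PRC1 and TPX2 did not pass.

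The wider cell cycle machinery was read through lists of other genes. These lists were read in the reported test only, not under the other settings. Of 73 other mitotic genes, 69 were tested, and 68 rose in SA while MAD1L1, a checkpoint protein, fell (log2 fold change -0.14, adjusted p = 0.033). Among all genes tested 26.1% rose in SA. The largest rises were those of CDCA3 (2.04, adjusted p = 3.7e-09), HMMR (1.96, 2.5e-09), CENPL (1.94, 1.4e-10), the condensin ATPase SMC2 (1.94, 5.4e-11) and CENPT (1.89, 1.4e-09). In IMA, 41 of the 69 fell, where 40.2% of all genes tested did, and 5 rose, where 19.9% did. The largest decreases were those of SPC24, the partner of SPC25, from 29.9 ± 2.67 to 16.7 ± 2.29 FPKM (-0.81, adjusted p = 1.1e-05), NCAPH2 (-0.64, 2.4e-06), SKA2 (-0.59, 2.5e-05), CENPP (-0.55, 0.0005) and NCAPG2 (-0.52, 5.6e-05). The 5 that rose were PTTG1, WEE1, CENPI, CKAP5 and CDKN3, with log2 fold changes of 0.28, 0.16, 0.19, 0.15 and 0.28, and they were named after their values were seen, as was MAD1L1. The proliferation marker MKI67, also singled out afterwards, was at 2.43 ± 0.461 FPKM in IMPA, 1.59 ± 0.284 in IMA, 0.913 ± 0.153 in SPA and 2.96 ± 0.512 in SA. It rose in SA (1.04, adjusted p = 1.2e-06) and fell in IMA (-0.40, adjusted p = 0.0047). The list medians were 1.28 in SA and -0.18 in IMA.

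The anaphase-promoting complex itself, which CDC20 and UBE2C serve, had a smaller median change in SA than its partners, a difference that was not tested. Of 16 tested genes of the complex and its regulators 7 rose in SA and ANAPC16, named after its value was seen, fell, with a median of 0.11, and in IMA 1 rose and 9 fell, with a median of -0.20. Over all genes tested, 26.1% rose in SA, and in IMA 19.9% rose and 40.2% fell. FBXO5, an inhibitor of the complex that is itself transcribed with the cell cycle, rose most in SA, from 1.62 ± 0.203 to 8.04 ± 0.792 FPKM (1.78, adjusted p = 1.6e-09). The subunits CDC23, ANAPC11, ANAPC15 and ANAPC2 followed with 0.50, 0.36, 0.29 and 0.22. In IMA, ANAPC2 (-0.42, adjusted p = 0.00023), ANAPC7 (-0.38, 4.8e-05), ANAPC1 (-0.34, 0.00016), ANAPC4 (-0.29, 0.0016) and CDC16 (-0.27, 0.00017) fell. ANAPC2 thus rose in SA and fell in IMA.

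Of 11 genes for the transcription of mitotic genes, the activator FOXM1 had a mean under 1 FPKM and the other 10 were tested. In SA 7 rose and none fell, with MYBL2, the activator of the MuvB complex, first (1.46 ± 0.236 to 6.15 ± 0.976 FPKM, 1.53, adjusted p = 6.8e-08), then its MuvB subunit LIN9 (1.12), the pocket protein RBL1 (1.00), LIN54 (0.68) and RBBP4 (0.39). The share of all genes tested that rose in SA was 26.1%. In IMA 7 of the 10 fell, where 40.2% of all genes did, and 2 rose, where 19.9% did. The repressor E2F4 fell by a log2 fold change of -0.61 (adjusted p = 5.1e-06), its partner TFDP1 by -0.60, MYBL2 by -0.50 and the pocket protein RBL2 by -0.31, whereas the MuvB subunit LIN37 rose by 0.29 (adjusted p = 0.0086).

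DNA replication genes, which act before mitosis, had a more negative median in IMA than the mitotic genes. Of 37, 36 were tested, 36 rose in SA and 33 fell in IMA with none higher, and their medians were 1.03 and -0.43. Over all genes tested, 26.1% rose in SA and 40.2% fell in IMA. RRM2, a subunit of the enzyme that makes deoxyribonucleotides, rose most in SA (10.7 ± 0.358 to 80.4 ± 5.06 FPKM, 2.80, adjusted p = 3.1e-12), followed by TYMS (1.61), PCNA (1.59), TK1 (1.58) and MCM5 (1.49). In IMA the largest decreases were those of the replicative helicase subunits MCM5 (14.0 ± 1.05 to 6.10 ± 1.02 FPKM, -1.09, adjusted p = 1.6e-06), MCM2 (-0.95) and MCM4 (-0.89), then UHRF1 (-0.71) and MCM3 (-0.69). The difference between the lists was not tested.

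**Figure D5:**
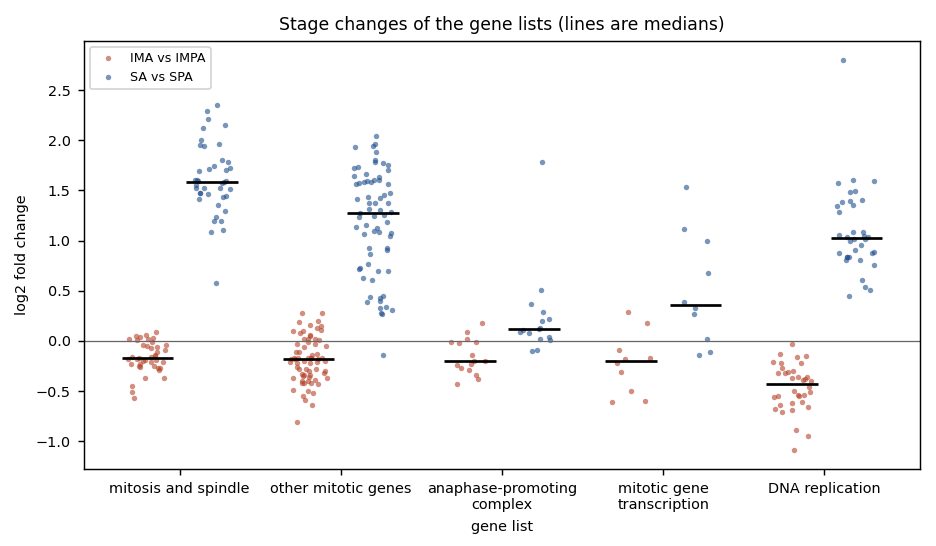
Log2 fold change (y axis) of each tested gene of the 41 mitosis and spindle genes and of 4 related lists (x axis), from IMPA to IMA (red) and from SPA to SA (blue), with lines for the medians and points spread sideways for legibility. The blue medians are 1.58, 1.28, 0.11, 0.36 and 1.03 from left to right, and the red medians -0.17, -0.18, -0.20, -0.20 and -0.43.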

How the data were processed

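Strand-specific RNA libraries of 20 cell samples were sequenced by the authors, 5 each of IMPA, IMA, SPA and SA. The deposited values are FPKM per transcript and library, which the authors calculated with StringTie 1.3.1 (Ballgown and Cuffdiff are named beside it) after alignment with HISAT2 2.0.4 to the goat assembly ARS1 (GATK 2.6-5 is also named in the submitters' processing notes, without a role). FPKM depends on how reads shared by transcripts are divided and on the mapped total, and nothing was realigned or counted again.

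From these values, transcripts of the mRNA table (43766) were summed per official symbol, giving 20587 symbols, and used as log2(FPKM + 1) without further scaling. Genes averaging 1 FPKM or more across all 20 libraries, 11432 in number, were fitted with limma 3.58.1 under R 4.3.3, with moderated variances and a trend, in a separate fit of 10 libraries per comparison and of 20 for the interaction. Adjustment of p followed Benjamini and Hochberg, over every gene tested. Values were tabulated and plotted in Python 3.11.15 with numpy 2.4.6, pandas 2.3.3 and matplotlib 3.10.9. The main limma fit was tested on simulated data in which low means were raised and few genes changed. That test did not cover the summing of transcripts, the filter, low values or the other settings.

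The 41 members and the related lists were chosen with earlier results of these data known. Any member or marker gene may be named. Of each related list, the 5 called genes with the largest absolute log2 fold change per stage comparison are named, and others are said to have been chosen after their values were seen. The gene IDs of all 41 members matched the RefSeq gene table. Other settings tried were scaling by the upper quartile, to an equal mRNA FPKM sum or by quantiles, a lower filter (mean 0.1 FPKM) or none, a pseudocount of 0.1, limma without the trend, a plain linear model that carries Ballgown's term for library size, the most abundant transcript per gene, 1 fit for all 4 groups, a replicate block, and the removal of each library in turn or of SPA 1 and SA 5 together. Coordinates and sequences were not used here.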

Additional observations from a re-analysis of the deposited data

Results flagged for a closer look

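In 41 of 41 genes the change of stage differed between the depots by the interaction test of limma over 20 libraries, with every adjusted p at or under 9.9e-07. Over all genes tested, at an adjusted p under 0.05, the change was more negative in the intramuscular cells for 34.6% and more positive for 20.7%. The difference, the change from IMPA to IMA less the change from SPA to SA on the log2(FPKM + 1) scale, was below -2 for NUSAP1 (-2.32), NDC80 (-2.31), TOP2A (-2.24), KIF11 (-2.23), TTK (-2.18), AURKB (-2.15), DLGAP5 (-2.13), CDK1 (-2.12), UBE2C (-2.07) and MELK (-2.01), and was -2.0 for NUF2. It was next for SPC25 (-1.97), BUB1B (-1.92), BIRC5 (-1.89), BUB1 (-1.88), CDC20 (-1.86), MAD2L1 (-1.85), CCNB1 (-1.82), ANLN (-1.80), CENPE (-1.79), NCAPG (-1.74), CCNA2 (-1.73) and KIF15 (-1.71). For NCAPH (-1.68), SPAG5 (-1.68), KIF2C (-1.66), NEK2 (-1.64), CCNB2 (-1.61), KIF20A (-1.61), CENPA (-1.60), ECT2 (-1.59), AURKA (-1.59), KIF20B (-1.58), PRC1 (-1.56), SKA1 (-1.55), TPX2 (-1.53) and CENPF (-1.50) it was smaller. The smallest differences were those of KIF23 (-1.38), KIF14 (-1.29), KIF18A (-1.21) and PLK1 (-0.73).

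A library stood apart from the other 4 of its group, by Dixon's criterion at the 95% level, in 8 of the 164 pairs of gene and group, and chance gives about 1 in 20. IMA 3 was the highest IMA library for ANLN (24.5 FPKM, others 21.8 to 22.4), AURKA (4.30, others 3.37 to 3.55), KIF20A (15.3, others 12.7 to 13.3) and SPC25 (3.89, others 2.78 to 3.03). For KIF15, IMPA 2 was high (3.59 FPKM, others 2.57 to 2.85) and IMA 5 low (1.96, others 2.27 to 2.39). KIF20A was low in SA 4 (19.8 FPKM, others 24.2 to 25.1) and PRC1 low in IMPA 4 (10.8, others 13.7 to 14.8).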

How the results depend on the processing

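The counts of members for SA against SPA, IMPA against SPA, IMA against SA and the interaction stayed within 1.5 times the reported value under every alternative, the lowest being 37, 38, 30 and 37 with the most abundant transcript. For IMA against IMPA, 22 members fell in the reported test, 13 under quantile normalization, where 1 member, CDK1, was called higher, and 13 with the most abundant transcript. The cause was not tested. With a library left out, the decreases numbered 16 to 24 and no member was called higher. Leaving out a library gave 41 in each case for SA against SPA, IMPA against SPA and the interaction, and 38 to 40 for IMA against SA. Over all genes, these settings gave 6362 to 6878 calls for IMA against IMPA, 5441 to 5872 for SA against SPA, 8334 to 8536 for IMPA against SPA, 7964 to 8187 for IMA against SA and 6054 to 6381 for the interaction.

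Changes of sign for IMA against IMPA, each at an adjusted p (limma, or the ordinary linear model) of 0.23 or more, were as follows. TPX2 became positive with upper-quartile scaling (0.029), quantile normalization (0.076), the library-size covariate (0.0096) and the most abundant transcript (0.44), and CCNB2 (0.038), KIF2C (0.0093), MAD2L1 (0.027) and PRC1 (0.036) did so with quantile normalization, and PRC1 with the covariate (0.0085). At an equal mRNA sum CENPF (-0.0083), NUSAP1 (-0.0084) and ECT2 (-0.015) became negative. With the most abundant transcript BUB1 (0.12) and KIF20B (0.083) became positive and ECT2 negative (-0.61). Leaving out a library turned the sign of TPX2 in 4 of 10 settings (range -0.072 to 0.038), ECT2 in 5 (-0.027 to 0.057), CENPF in 3 (-0.018 to 0.071), NUSAP1 in 2 (-0.049 to 0.085) and KIF18A in 1 (-0.023 to 0.073). In the other comparisons the sign turned only with the most abundant transcript, for TPX2 in IMPA against SPA (-0.26), IMA against SA (0.17) and the interaction (0.43), and for KIF20B (0.18) and KIF23 (0.10) in IMA against SA, none of them called.

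With the replicate number as a block, the counts were 19 lower members for IMA against IMPA, 38 for IMA against SA and 41 for the 3 other comparisons. KIF20B, KIF23 and PLK1 no longer passed in IMA against IMPA, and PLK1 in IMA against SA. Whether a number marks the same goat across groups is not given in the sources used here, so the reported tests used no pairing. Deviations of same-numbered IMPA and IMA libraries correlated at 0.042 to 0.12, with 4 of 5 libraries closest to their own number, and those of SPA and SA at -0.24 to 0.12, with 0 of 5. The number of fragments behind each value was not worked out, so the counting error of low values, such as AURKB and MELK in SPA (means of 1.10 and 1.14 FPKM), was not estimated.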
